A study of Homo sapiens with 6 samples.

Results

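Cell adhesion molecules of the immunoglobulin type were examined as a family of 8 genes: ICAM1, ICAM2, ICAM3, VCAM1, CD58, PECAM1, NCAM1 and MCAM. They were chosen by symbol: every probe set whose RefSeq accession maps to one of these genes was taken. All 8 had a probe set on the array, and NCAM1 had 2, which gives 9 probe sets of 1259 and 8 of 927 named genes. The family was put together with earlier results from these arrays in view, so its differences are given as a description of these arrays.

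RNA was measured on a glycogene chip, a focused Affymetrix-type array of glycosylation genes that also holds cytokine, receptor and some other genes, in HCT116, a human colorectal cancer cell line with microsatellite instability. One group (+DOX, 3 arrays) carried wild-type ACVR2, a type II receptor gene for activin, under doxycycline control and received doxycycline together with activin A. The other group (-DOX, 3 arrays) carried the same construct and received activin A without doxycycline. The titles name ACVR2 alone, whereas the source field names it together with TGFBR2 and AIM2, so the identity of the inducible gene rests on the titles. Neither a doxycycline-treated line without the construct nor a group without activin A is among these samples, so an effect of the drug and one of the receptor cannot be told apart, and whether either depends on activin A was not tested. Dose, induction time, clone number and whether replicates were separate cultures are not given in the sources used here. P-values therefore reflect only how far these arrays scatter, and that scatter may be technical.

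These proteins stand on the cell surface and carry immunoglobulin-like domains, through which they bind integrins, other receptors or copies of themselves on a neighbouring cell. The ICAM proteins and VCAM1 are ligands of leukocyte integrins, and inflammatory cytokines induce ICAM1 and VCAM1 in many cell types. CD58 binds CD2 on T cells and natural killer cells. PECAM1, NCAM1 and MCAM mediate contact between like cells, PECAM1 mainly in endothelium and blood cells, NCAM1 in nerve and natural killer cells, and MCAM in endothelium and some tumours. All are glycoproteins, and NCAM1 is the classical carrier of polysialic acid.

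CD58 and ICAM3 were the members with values of every +DOX array above every -DOX array, and the windows just before their annotated starts are printed for that reason, with that of ICAM1 beside them because ICAM1 lies in the same ICAM gene cluster as ICAM3 and is the textbook inducible member. Each window holds the 250 bases before the start on the gene's own strand, from RefSeq on GRCh38.p14. CD58 lies at chr1:116571027-116571276 on the minus strand, ICAM3 at chr19:10339625-10339874 on the minus strand and ICAM1 at chr19:10270870-10271119 on the plus strand. Capitals mark any of 4 motifs searched on both strands: GGNNNTTCC (a loose kappaB form), TTCNNNGAA (a GAS form), CAGAC (the SMAD box) and GGGCGG (the GC box).
CD58: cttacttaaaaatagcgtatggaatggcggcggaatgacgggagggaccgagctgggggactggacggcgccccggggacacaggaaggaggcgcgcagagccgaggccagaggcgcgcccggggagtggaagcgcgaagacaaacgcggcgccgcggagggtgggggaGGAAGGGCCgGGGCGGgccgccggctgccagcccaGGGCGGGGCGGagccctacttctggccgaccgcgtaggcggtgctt
ICAM3: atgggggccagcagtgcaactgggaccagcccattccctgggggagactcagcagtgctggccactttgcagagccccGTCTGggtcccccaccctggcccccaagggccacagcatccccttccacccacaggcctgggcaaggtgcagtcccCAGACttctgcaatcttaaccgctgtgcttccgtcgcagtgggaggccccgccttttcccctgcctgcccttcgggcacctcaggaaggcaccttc
ICAM1: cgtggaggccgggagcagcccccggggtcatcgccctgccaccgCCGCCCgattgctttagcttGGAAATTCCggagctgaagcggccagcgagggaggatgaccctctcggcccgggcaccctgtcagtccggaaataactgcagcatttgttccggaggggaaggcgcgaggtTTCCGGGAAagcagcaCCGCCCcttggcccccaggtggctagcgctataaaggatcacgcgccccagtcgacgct

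The CD58 window held 3 GC boxes, of which the copies starting 46 and 41 bases before the start share a base, and 1 kappaB-like match starting 81 bases before it. It held no SMAD box and no GAS-like match. The ICAM3 window held 2 SMAD boxes, starting 172 and 96 bases before the start, and none of the other 3 motifs. The ICAM1 window held a kappaB-like match starting 186 bases before the start, a GAS-like match at 75 and 2 GC boxes. So the windows of CD58 and ICAM3 shared none of the motifs searched. Among 35116 windows of the same length, 17.1% held the kappaB-like form, 6.57% the GAS-like form, 38.0% the SMAD box and 42.6% the GC box. Windows at the annotated gene start were found for 5 of the 8 members; the table lists 3 starts for ICAM3, of which the one at its annotated 5' boundary was used. In the other 2 of these, VCAM1 had 2 kappaB-like matches and 2 SMAD boxes, and MCAM had 5 GC boxes and 1 SMAD box. A match describes letters in the window and is not evidence of a bound factor.

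The deposited values are log2 expression values made with RMA, which corrects background, makes the arrays' distributions alike and summarises probes. Array medians ran from 7.61 to 7.65. Replicate 3 of the -DOX arrays stood apart: its correlations with the other 5 arrays across probe sets were 0.982 to 0.991, against 0.995 to 0.999 among those 5. For CD58, ICAM3 and MCAM the difference is given with and without it. The same was done for genes outside the family where a larger printed difference moved with it. Distances between profiles and shares of probe sets with separated groups include it. ACVR2A, the gene meant to be induced, read 8.15, 8.02 and 8.08 on +DOX replicates 1, 2 and 3, against 8.25, 8.07 and 8.70 on the -DOX replicates. Its difference was -0.26, and -0.08 without -DOX replicate 3. The groups overlapped. The position of its probes relative to the transgene is unknown, so this does not check the labels, by which the arrays are called. Of the 11 colon epithelium markers listed, MUC2 and LGALS4 were measured, with means of 7.27 and 7.30 on +DOX arrays and 7.29 and 7.30 on -DOX arrays, under the median level of 7.63 over all probe sets.

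The family split by signal. CD58, ICAM3 and MCAM lay above the median level of all probe sets, and the other 6 probe sets, for 5 genes, read between 6.30 and 7.23 on every array. Signals of different probe sets also depend on the probes, so this is an order of signals and not of transcript numbers. CD58 and ICAM3 had higher values on all 3 +DOX arrays, MCAM had a lower +DOX mean with overlapping groups, and the dim probe sets had differences between -0.09 and 0.05 log2 units. None of the 9 probe sets passed an adjusted p of 0.05 in the fit over all probe sets (limma), where 0% of the 1259 passed either. At an unadjusted p under 0.05 there was 1 member probe set, CD58, against 7.78% of all probe sets. Groups did not overlap for 2 of the 9 (22.2%), against 15.8% of all probe sets. Both were among the 3 member probe sets at or above the median level. There, groups did not overlap for 19.4% of all probe sets. In both the +DOX arrays lay above, which held for 7.55% of all probe sets. By direction, 4 genes had higher and 4 lower +DOX values, while 45.4% of all probe sets had higher ones. The median difference of the 8 genes was 0.0065, against -0.0106 over all 927 named genes.

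**Figure D1:**
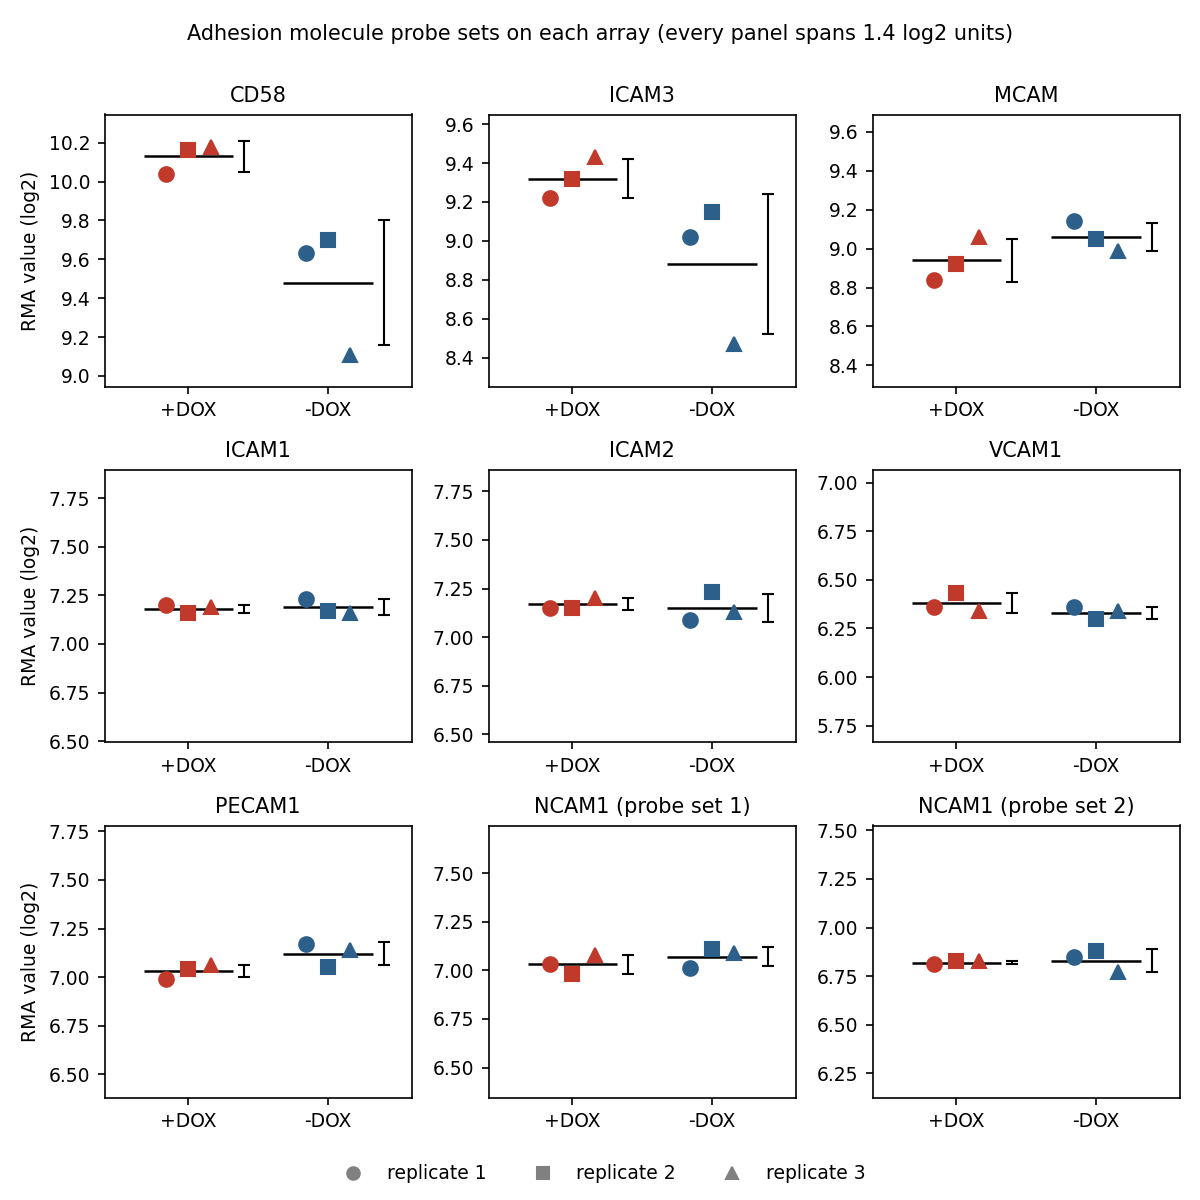
RMA values (log2, vertical axis) of the 9 adhesion molecule probe sets on each of the 3 +DOX arrays (red, left) and 3 -DOX arrays (blue, right), with symbols for replicates 1 to 3, the mean as a line and the SD as a bar. Every panel spans 1.4 log2 units; CD58 and ICAM3 are above every -DOX array on all +DOX arrays, and their lowest points are -DOX replicate 3.

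CD58, also called LFA-3, is a broadly expressed ligand that lets T cells and natural killer cells attach through CD2. It read 10.04, 10.16 and 10.18 on +DOX replicates 1, 2 and 3, against 9.63, 9.70 and 9.11 on -DOX replicates 1, 2 and 3. The +DOX arrays lay close together, and all lay above every -DOX array, with -DOX replicate 3 well below the rest. The +DOX mean was 10.13 ± 0.08 and the -DOX mean 9.48 ± 0.32 (SD, n = 3 each). The difference was 0.64 log2 units (SE 0.16, 95% interval 0.24 to 1.05), or 1.56-fold higher with doxycycline, and did not pass the threshold over all probe sets (limma, adjusted p = 0.477). Ordered by size of difference in either direction, CD58 was number 8 of 1259, and number 4 of those with higher +DOX values. Without -DOX replicate 3 the difference was 0.46 (SE 0.06, 95% interval 0.31 to 0.61; limma, adjusted p = 0.169). A gap of 0.33 separated the lowest +DOX from the highest -DOX array. Leaving out -DOX replicate 3 could not change this gap, since it was the lowest -DOX array. In bulk RNA such as this, fewer cells carrying a transcript and less of it per cell cannot be told apart.

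ICAM3 is found mainly on resting leukocytes, where it binds a leukocyte integrin and the lectin CD209. Its probe set read 9.22, 9.32 and 9.43 on +DOX replicates 1, 2 and 3, against 9.02, 9.15 and 8.47 on the -DOX replicates. The groups did not overlap, but the gap between the nearest arrays was 0.0771 log2 units, smaller than the SD of either group. Means were 9.32 ± 0.10 on +DOX arrays and 8.88 ± 0.36 on -DOX arrays (SD, n = 3 each), a difference of 0.45 (SE 0.18, 95% interval -0.02 to 0.91; limma, adjusted p = 0.656). That difference was number 48 of 1259 by size. Without -DOX replicate 3 it was 0.24 (SE 0.08; limma, adjusted p = 0.382), so that much of the ICAM3 difference comes from this array. Of 10 leukocyte markers listed 1 was measured, SELPLG, under the median level and with overlapping groups. It read 7.11, 7.07 and 7.06 on +DOX replicates 1, 2 and 3, against 7.11, 7.07 and 7.07 on the -DOX replicates. The part of leukocyte markers in the ICAM3 result was not tested.

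**Figure D2:**
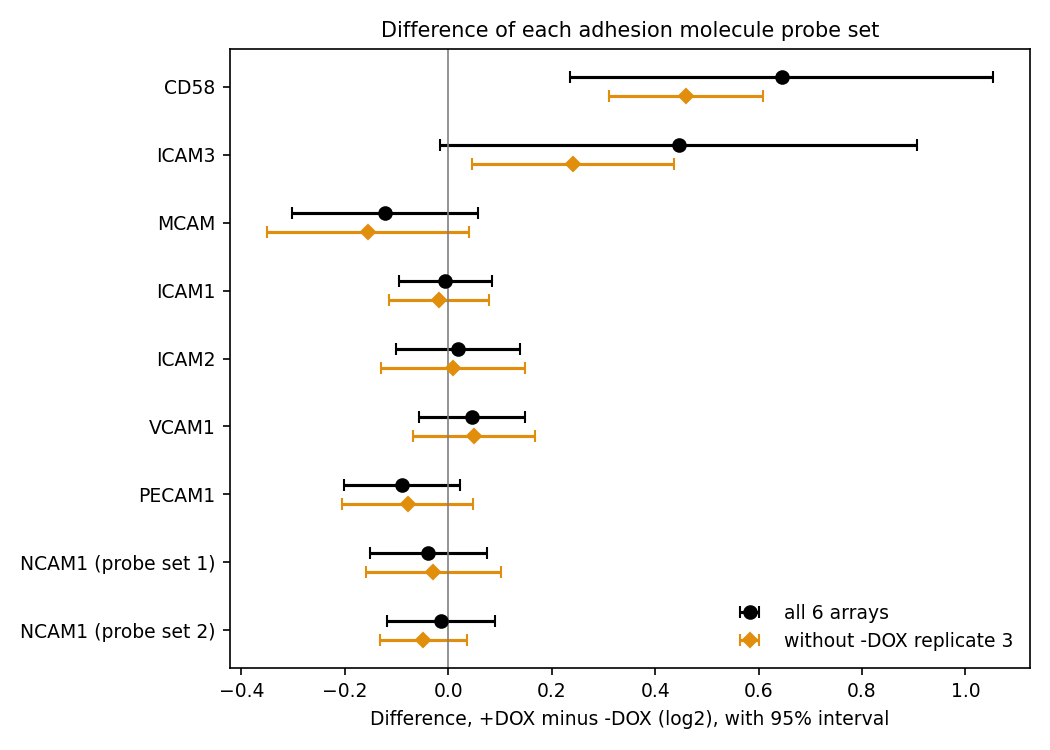
Difference of each probe set, +DOX minus -DOX in log2 units (horizontal axis), with its 95% interval from the fit over all probe sets, for all 6 arrays (black circles) and without -DOX replicate 3 (orange diamonds). The intervals of 7 probe sets include 0 in both fits; that of CD58 lies above 0 in both, at 0.24 to 1.05 with all arrays, and that of ICAM3 includes 0 with all arrays only.

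On -DOX replicate 3, CD58 lay 0.55 log2 units and ICAM3 0.61 log2 units below the mean of -DOX replicates 1 and 2. Deviations at least that large, in either direction, occurred on this array for 11.1% of all probe sets in the case of CD58 and 8.58% in the case of ICAM3. ICAM1, ICAM2, VCAM1, PECAM1 and the brighter NCAM1 probe set deviated by less than 0.1 there. MCAM and the dimmer NCAM1 probe set both deviated by -0.10, an amount that 53.5% and 53.4% of probe sets reached.

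**Figure D3:**
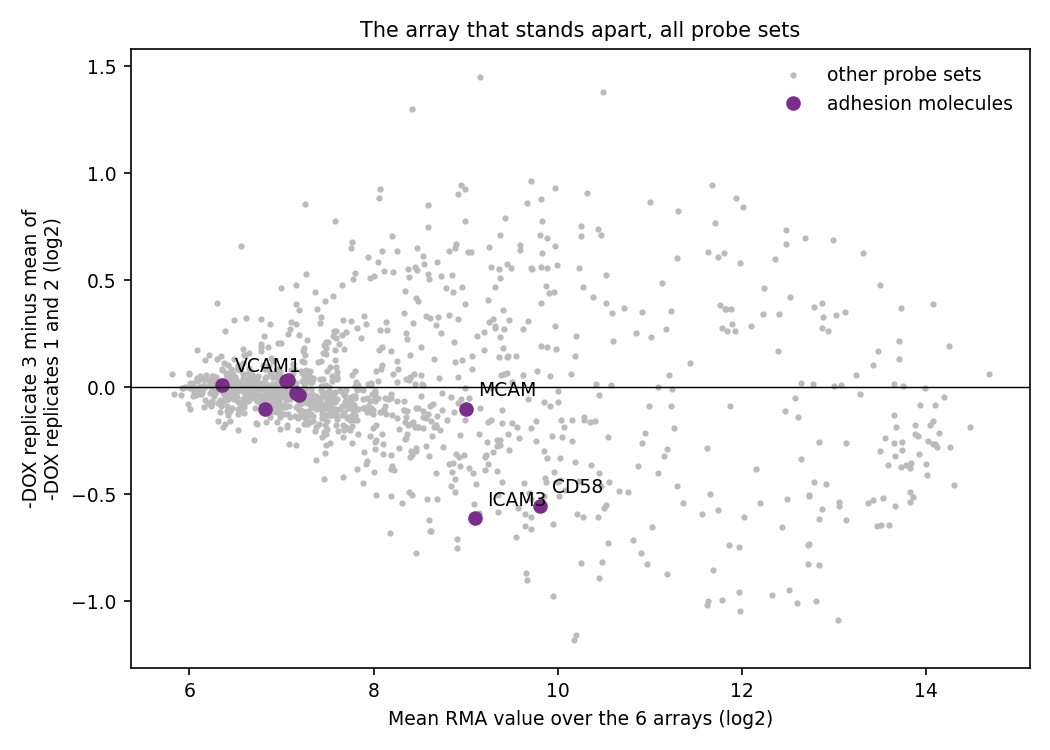
Deviation of -DOX replicate 3 from the mean of -DOX replicates 1 and 2 (vertical axis, log2) against the mean RMA value over the 6 arrays (horizontal axis, log2) for all 1259 probe sets (grey) and the adhesion molecules (purple). CD58 and ICAM3 lie 0.55 and 0.61 below 0, among many probe sets of similar level that lie as far off.

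MCAM, also called CD146, is an adhesion molecule of endothelium and of melanoma and other tumours. It read 8.84, 8.92 and 9.06 on +DOX replicates 1, 2 and 3, against 9.14, 9.05 and 8.99 on the -DOX replicates. The groups overlapped, since +DOX replicate 3 lay above -DOX replicates 2 and 3. Means were 8.94 ± 0.11 and 9.06 ± 0.07 (SD, n = 3 each) on +DOX and -DOX arrays, a difference of -0.12 (SE 0.07, 95% interval -0.30 to 0.06; limma, adjusted p = 0.692). Here -DOX replicate 3 was the lowest of its group and not far from the others, and without it the difference was -0.16.

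The ICAM genes other than ICAM3 had dim and nearly equal values. ICAM1, the cytokine-inducible ligand of leukocyte integrins, read 7.20, 7.16 and 7.19 on +DOX replicates 1, 2 and 3, against 7.23, 7.17 and 7.16 on the -DOX replicates. Its difference was -0.0056 (95% interval -0.10 to 0.08), its sign was positive after centring the arrays on their medians, and its 6 values spanned 0.0737 log2 units. ICAM2, a ligand of the same integrins found on endothelium and platelets, read 7.15, 7.15 and 7.20 on +DOX arrays, against 7.09, 7.23 and 7.13 on -DOX arrays. The lowest and the highest ICAM2 values were both -DOX arrays, and the difference was 0.02 (95% interval -0.10 to 0.14).

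VCAM1, the endothelial ligand of leukocyte integrins, gave the dimmest probe set of the family, under the lower quartile of 6.88. It read 6.36, 6.43 and 6.34 on +DOX replicates 1, 2 and 3, against 6.36, 6.30 and 6.34 on the -DOX replicates, a difference of 0.05 (95% interval -0.06 to 0.15). PECAM1, the platelet and endothelial molecule, read 6.99, 7.04 and 7.06 on +DOX arrays, against 7.17, 7.05 and 7.14 on -DOX arrays. It came closest to separated groups among the dim probe sets, its highest +DOX value lying 0.00741 above its lowest -DOX value. Its difference was -0.09 (SE 0.045, 95% interval -0.20 to 0.02; limma, adjusted p = 0.682).

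NCAM1, the neural adhesion molecule, had 2 dim probe sets with small differences. The brighter read 7.03, 6.98 and 7.08 on +DOX replicates 1, 2 and 3, against 7.01, 7.11 and 7.09 on the -DOX replicates, a difference of -0.04 (95% interval -0.15 to 0.08). The dimmer, whose name carries the suffix that Affymetrix gives to probes shared between transcripts, read 6.81, 6.83 and 6.83 on +DOX arrays, against 6.85, 6.88 and 6.77 on -DOX arrays, a difference of -0.01 (95% interval -0.12 to 0.09). Without detection calls it cannot be said how much of these dim signals is background, and a real change in a transcript near background would be understated.

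**Figure D4:**
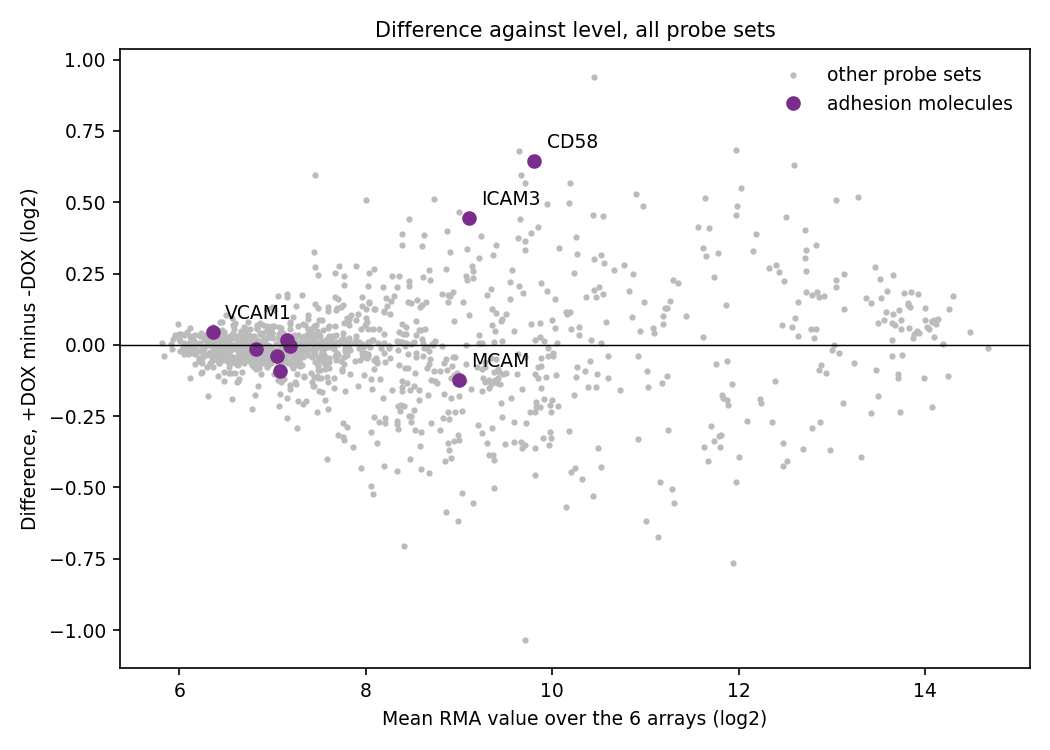
Difference, +DOX minus -DOX (vertical axis, log2), against the mean RMA value over the 6 arrays (horizontal axis, log2) for all 1259 probe sets (grey) and the adhesion molecules (purple). Differences over 0.1 in size occurred for 61.4% of probe sets at or above the median level and 10.2% of those below it; CD58 at 0.64 and ICAM3 at 0.45 lie among the brighter probe sets.

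Small differences were usual for dim probe sets. Among the 629 probe sets below the median level, 10.2% differed by over 0.1 in size and 0.318% by over 0.4, while among the 630 at or above it 61.4% and 10.3% did. The 6 dim members therefore have the size of difference most dim probe sets had, and CD58 and ICAM3 are among the 10.3% of brighter probe sets past 0.4.

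The profile of CD58 over the 6 arrays was compared with those of 919 genes outside the family after each was centred on its own mean. The nearest was NAGK, the N-acetylglucosamine kinase, at a root mean square distance of 0.051 log2 units, followed by NRG1, a neuregulin, at 0.10 and SRP14, a signal recognition particle subunit, at 0.109. The median distance from CD58 was 0.377, and ICAM3 lay 0.106 from it. NAGK read 9.92, 10.06 and 9.99 on +DOX replicates 1, 2 and 3, against 9.59, 9.67 and 9.02 on the -DOX replicates. It had the same high group and the same lowest array as CD58, which follows from its choice by nearness. Nearest to ICAM3 were the fringe gene LFNG at 0.0547, the proton pump subunit gene ATP6V0B at 0.0608 and the ribosomal protein gene RPL34 at 0.0657, against a median of 0.311. All 3 also had their lowest value on -DOX replicate 3, as ICAM3 did, which again follows from the choice. Nearest to MCAM were CLCF1, a cytokine gene, at 0.043, the syndecan gene SDC1 at 0.0474 and the interleukin receptor gene IL4R at 0.0545, against a median of 0.121. These distances rest on 6 arrays, of which 1 stands apart.

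**Figure D5:**
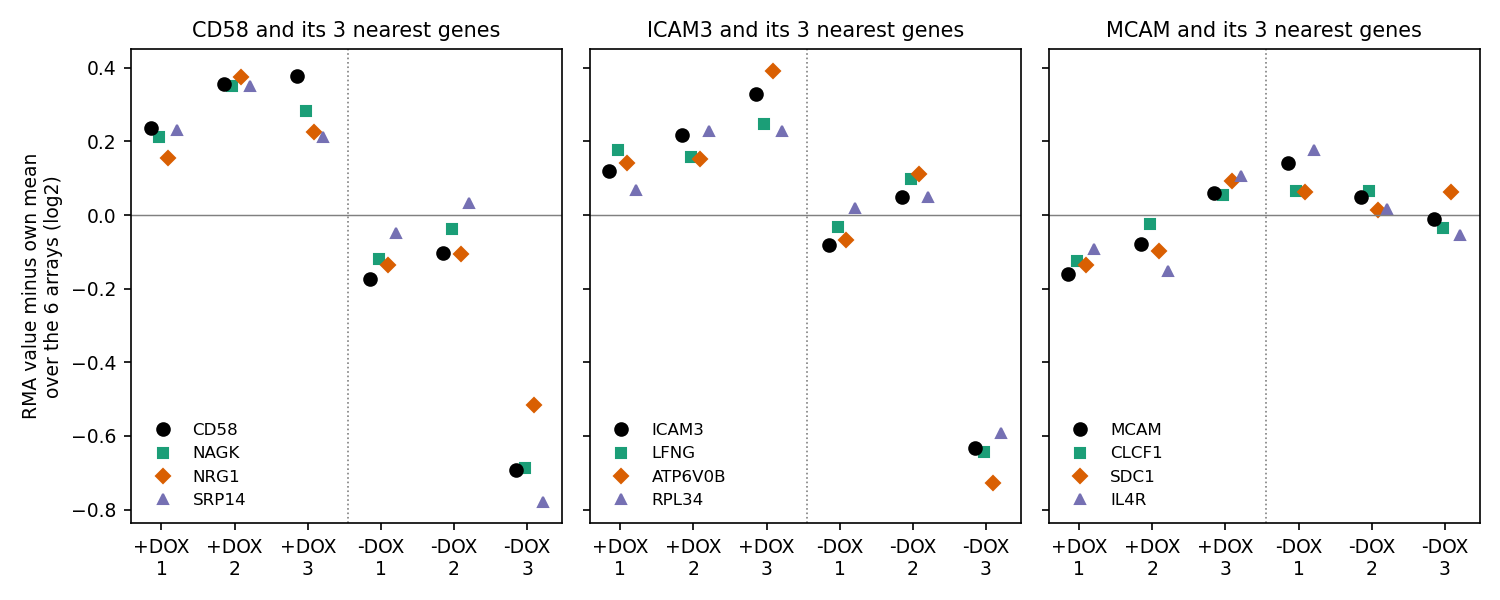
Values minus each gene's own mean over the 6 arrays (vertical axis, log2) for CD58, ICAM3 and MCAM (black) and the 3 genes nearest to each, on the +DOX and -DOX arrays (horizontal axis, replicates 1 to 3). CD58, ICAM3 and their neighbours are lowest on -DOX replicate 3, whereas MCAM and its neighbours stay within a range of 0.331 log2 units.

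Genes that work with these molecules mostly read as dim, with small differences. The 9 listed integrin subunits that bind ICAM proteins or VCAM1 were not analysed here. Of the 7 other binding partners 4 were measured, all with slightly lower +DOX means and 0 past the threshold: CD2, the receptor of CD58, differed by -0.03, CD209, which binds ICAM2 and ICAM3, by -0.04, and GFRA1, a partner of NCAM1, by -0.05. CD2 read 7.45, 7.59 and 7.55 on +DOX replicates 1, 2 and 3, against 7.51, 7.60 and 7.58 on the -DOX replicates. The CD2 groups overlapped, whereas those of CD209 and GFRA1 did not, with +DOX below, at gaps of 0.026 and 0.0143 log2 units between the nearest arrays. Groups without overlap, in either direction, occurred for 15.8% of all probe sets. Of 25 further immunoglobulin-type adhesion genes listed, CD48 and MADCAM1 were measured, at -0.03 and -0.01.

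The cytokines known to induce ICAM1 or VCAM1 were dim too. Of 9 listed 5 were measured, 4 with higher and 1 with lower +DOX values, none past the threshold, between -0.01 for IL13 and 0.03 for IL1A. IL1B was at 0.03 and IL4 at 0.02. Of 11 receptors of such cytokines 5 were measured, 2 higher and 3 lower with 0 past the threshold. Separated groups, found for 15.8% of all probe sets, occurred here for IFNGR2, a chain of the interferon-gamma receptor. IFNGR2 had a mean of 10.99 on +DOX arrays, against 10.93, 10.81 and 10.50 on -DOX replicates 1, 2 and 3. Its difference was 0.25 (SE 0.11; limma, adjusted p = 0.675), and 0.13 without -DOX replicate 3. IL4R was at -0.09 and IFNGR1, the other chain, at -0.05, against -0.14 and 0.02 without -DOX replicate 3.

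All 6 listed enzymes that make polysialic acid or the HNK-1 epitope, both carried by NCAM1, were measured, and all lay below the median level. On +DOX arrays 4 had higher and 2 lower values, 0 of them past the threshold, and their median difference was 0.02. B3GAT1, which starts the HNK-1 epitope, was at -0.06 with groups that did not overlap, as for 15.8% of all probe sets. Its relative B3GAT2 was at 0.08 and the polysialyltransferase gene ST8SIA2 at -0.05. Of 9 genes for selectins and their ligands 8 were measured, 2 with higher and 6 with lower +DOX values. Their median difference was -0.03, and 0 passed. CD44, a hyaluronan receptor, was at -0.39, and at -0.11 without -DOX replicate 3. CD34 was at -0.06 and the selectin gene SELP at -0.04. The 6 listed cadherins were not analysed here.

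Markers of endothelium, where ICAM2, VCAM1, PECAM1 and MCAM are typical, were measured for 4 of 10 genes. Their log2 values, added up per array, came to 28.78 to 28.80 on +DOX arrays and 28.32 to 28.78 on -DOX arrays. EMCN did not overlap between groups, as for 15.8% of all probe sets. It was higher on +DOX arrays by 0.28 (limma, adjusted p = 0.562), and by 0.18 without -DOX replicate 3. CD34 was at -0.06 and FLT1 at 0.04, and SELE was among the dim ones with means of 6.24 on +DOX and 6.26 on -DOX arrays. VWF, CDH5 and KDR were not analysed here. Of 9 neural and stromal markers 6 were measured, 2 higher and 4 lower. Their log2 values, added up in the same way, came to 41.98 to 42.19 on +DOX arrays and 41.82 to 43.62 on -DOX arrays. VCAN was at -0.55, and at -0.07 without -DOX replicate 3. NCAN was at 0.02 and MAG at -0.02. Their part in the values of the family was not tested.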

How the data were processed

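The authors deposited RMA values on the log2 scale for 1259 probe sets, credited to RMA in the submitters' processing notes without a version. RNA was extracted with Trizol and labelled with biotin, per the labels' protocols. Scanner data and detection calls were not used here. The RefSeq accession in each identifier, version dropped, was looked up among the RefSeq genes of GRCh38.p14, and 1043 probe sets (82.8%) got 1 symbol. Groups and replicate numbers came from the sample titles. The fit covered all 1259 probe sets in limma 3.58.1 (R 4.3.3; a +DOX minus -DOX coefficient, eBayes, two-sided, neither block nor filter), with Benjamini-Hochberg adjustment at 0.05. It was tested on simulated data with the same scatter for every probe set and no array standing apart. That test therefore does not cover these features of the real arrays. The number of arrays limits precision: the median 95% interval reached 0.152 log2 units to either side. An exact permutation test of 3 against 3 cannot go below 0.1, so none is given. A gene with several probe sets is represented by that with the highest mean.

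The members and gene lists were chosen with earlier results of these data known. Named genes are all members, ACVR2A, up to 3 genes per list with the smallest raw p, and the 3 nearest profiles of the 3 most variable members. Any list gene beyond those 3, such as SELE, is named for its role. A further gene of these lists is not reported here. Promoter windows came from RefSeq (GRCh38.p14). Alternatives were each array left out, a replicate block, 2 other scalings, a filter on dim probe sets, array weights, a variance trend and the mean of NCAM1 probe sets.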

Additional observations from a re-analysis of the deposited data

How the results depend on the processing

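No probe set passed the threshold with any setting except array weights, with which 1 of 1259 passed, not a member (limma, adjusted p = 0.0378); the weight estimate stopped before its tolerance. CD58, ICAM3, VCAM1, PECAM1 and MCAM kept their direction in every setting run for them. For CD58 and ICAM3, leaving out an array could not turn the sign, since every +DOX value lay above every -DOX value. The replicate block, the dim filter and the variance trend leave the difference of a probe set unchanged, so they could not turn it either. CD58 ranged from 0.46 to 0.76 (limma, adjusted p from 0.0699 to 0.903) and ICAM3 from 0.24 to 0.58 (limma, adjusted p from 0.171 to 0.903), the lowest value of each being that without -DOX replicate 3. Leaving out each array in turn gave -0.018 to 0.017 for ICAM1, -0.012 to 0.059 for ICAM2, -0.048 to 0.010 for the dimmer and -0.069 to -0.014 for the brighter NCAM1 probe set, 0.018 to 0.067 for VCAM1, -0.125 to -0.067 for PECAM1 and -0.182 to -0.070 for MCAM. With each array centred on its median, ICAM1 was at 0.014 and the dimmer NCAM1 probe set at 0.0059; with array weights the brighter was at 0.00086. The cause of these turns was not tested. The dim filter, at a mean of 6.88, removed VCAM1 and the dimmer NCAM1 probe set. The mean of both NCAM1 probe sets was -0.026.

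At an unadjusted p under 0.05, 41 probe sets were higher and 57 lower; centring gave 63 and 44, and quantile normalization again 61 and 51. The total of 98 became 45 without +DOX replicate 1, 53 without +DOX replicate 2 and 258 without -DOX replicate 2. It was 125 without -DOX replicate 3 and 246 with array weights. The weights were lowest for -DOX replicates 3 (0.198) and 2 (0.393), against 1.28 to 3.36 for the other arrays. The median of the 8 genes was -0.0046 without -DOX replicate 3, that of the cytokine receptors, -0.021 with all arrays, was 0.023, and that of the endothelial markers, 0.010 with all arrays, was -0.0068; leaving out this array for list medians was chosen after seeing the data. Replicate numbers are shared by both groups, and deviations of same-numbered arrays correlated at -0.147, -0.0428 and -0.157. Deviations within a group depend on each other and -DOX replicate 3 stands apart, so these values cannot decide whether same-numbered arrays were paired. With the replicate block 0 probe sets passed and CD58 had an adjusted p of 0.715 (limma).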

Other observations

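CD44 and VCAN ran opposite to CD58 and ICAM3 on the array that stands apart. Deviations there at least as large as theirs, in either direction, occurred for 2.94% and 0.0794% of all probe sets. On that array 59.2% of all probe sets lay below the mean of -DOX replicates 1 and 2. CD44, the hyaluronan receptor, read 11.89, 11.66 and 11.88 on +DOX replicates 1, 2 and 3, against 12.01, 11.83 and 12.76 on the -DOX replicates. VCAN, the gene of the matrix proteoglycan versican, read 8.75, 8.90 and 8.99 on +DOX arrays, against 9.27, 8.62 and 10.39 on -DOX arrays. The groups overlapped for each gene, and -DOX replicate 3 held the highest value of each. These genes were chosen after their values were seen.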
